A study of Drosophila melanogaster with 31 samples.

Results

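The transcripts of 10 genes that set the pace of the cell division cycle were followed in mosaic wing discs of Drosophila melanogaster: string (stg), Cyclin E (CycE), dacapo (dap), Cyclin A (CycA), Cyclin B (CycB), Cyclin B3 (CycB3), Cyclin D (CycD), Cyclin-dependent kinase 1 (Cdk1), tribbles (trbl) and fizzy-related (fzr). They were chosen by name, as a list of cell cycle regulators, and are 10 of the 17373 genes in the deposited table of read counts. The table lists fzr under its older symbol rap. All 10 had enough counts to be tested.

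Wing discs are the larval epithelia from which the adult wing and notum form, and they were dissected by hand from 3rd instar larvae raised at 25 degrees on normal food. RNA-seq covered 6 groups with 3 libraries in each, and every library pooled discs of 12 to 35 larvae. The groups were discs with clones mutant for cic and wts together (cicQ474X wts149) at day 9, for wts alone (wts149) at day 9, for both at day 5, for wts alone at day 5, for cic alone (cicQ474X) at day 5, and control discs with an unmutated FRT82B chromosome at day 5. In all groups, controls included, flies carried ubxflp, an FLP recombinase driven in the disc, and the other FRT82B chromosome bore ubiGFP and a Minute mutation, M(3), which slows the growth of the cells that keep it. Each library is therefore a mixture of recombined cells and cells still heterozygous for the Minute, in a proportion that the labels do not give, and a change in the share of a kind of cell and a change in the RNA per cell cannot be told apart. Capicua (Cic) represses genes that Ras signalling turns on, and Warts (Wts) is the Hippo pathway kinase that holds back the growth co-activator Yorkie. The series holds no RNA library of control or cic discs at day 9, so age was compared only in discs with wts-mutant clones.

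Cyclin-dependent kinases drive the cell cycle and are active only when bound to a cyclin. Cyclin D acts in cell growth and in G1, Cyclin E starts S phase with Cdk2, and Cyclins A, B and B3 act with Cdk1 to bring cells into and through mitosis. String is the Cdc25 phosphatase that removes the inhibitory phosphate from Cdk1. In the wing disc its transcription is regulated by patterning signals and sets when cells leave G2. Tribbles promotes the destruction of String protein, Dacapo is a p21/p27-type inhibitor of Cyclin E with Cdk2, and Fizzy-related directs the anaphase-promoting complex to degrade mitotic cyclins in G1.

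Library totals ran from 14201662 to 26217144 counts. Across the libraries, 10 genes that mark wing disc cells summed to between 2946 and 4065 CPM (counts scaled to library size), and none of the 10 was at 0 in any library. Single genes of the 10 differed more between groups than the sum. In cic wts discs at day 9 and in control discs, vg ran from 66.5 to 76.5 and from 215 to 265 CPM. In the same groups pnr ran from 16.1 to 19.6 and from 37.2 to 43.1 CPM. The other way, rn ran from 456 to 485 and from 257 to 302 CPM. Several libraries stood apart in transcripts of other tissues. Control replicate 3 had 5250 CPM summed over 7 salivary gland genes, and cic wts day 5 replicate 1 had 1649 CPM summed over 8 hemocyte genes. Control replicate 2 had 251 CPM of the salivary gland genes, and replicate 1 had 3.17 CPM. Over 7 fat body genes, cic wts day 5 replicate 2 had 623 CPM, against 4.93 and 3.29 CPM in replicates 1 and 3. The same sum was 220 CPM in wts day 9 replicate 2, against 12.9 and 29.8 CPM in replicates 1 and 3. The RNAs roX1 and roX2, which are made in males, together ran from 231 to 442 CPM in cic wts and from 474 to 687 CPM in wts discs at day 9, from 449.6 to 1112 CPM in cic wts, from 596 to 740.2 CPM in wts, from 117 to 423 CPM in cic and from 237 to 605 CPM in control discs at day 5. The mutated genes stay transcribed in these discs. At day 5 cic averaged 465 CPM in cic wts, 647 CPM in wts, 467 CPM in cic and 587 CPM in control discs, and it was called lower in cic wts than in wts discs (adjusted p = 0.0332 at day 5 and 0.012 at day 9) and than in control discs (adjusted p = 0.0468), but not in cic against control discs (adjusted p = 0.252). The wts transcript was higher in its mutant, at 203 CPM in wts and 100.2 CPM in control discs (adjusted p = 1.12e-06), so neither transcript is proof of genotype.

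Of all 10 genes, stg varied most. Its highest group mean was 5.78 times its lowest, against 1.13 to 1.60 times for the other 9. At day 9 stg stood at 404.8, 434.5 and 418.4 CPM in cic wts discs and at 2071, 566.5 and 698.3 CPM in wts discs. At day 5 it stood at 313.7, 481.0 and 458.0 CPM in cic wts discs and at 360.3, 1097 and 851.8 CPM in wts discs. In cic discs it stood at 176.8, 218.2 and 182.0 CPM, and in control discs at 228.9, 213.9 and 249.6 CPM. All 12 libraries that carried wts149 lay above all 6 that did not. Within wts discs the libraries lay far apart, while the 3 cic wts libraries of day 9 lay within a few percent of each other.

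**Figure D1:**
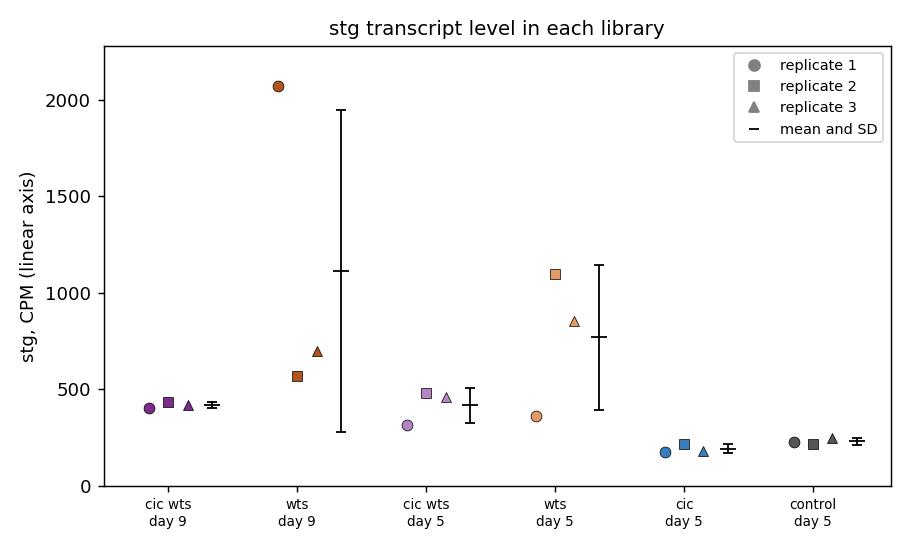
Level of stg in each library, in CPM (vertical axis), for the 6 groups (horizontal axis); points are libraries and bars mark the mean and SD of 3 libraries. The 12 wts-mutant libraries lie between 314 and 2071 CPM, above the 6 libraries with intact wts at 177 to 249.6 CPM, and wts discs have the widest spread.

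Loss of wts alone was compared with the control at day 5, where edgeR's quasi-likelihood test, adjusted over 9004 genes by Benjamini-Hochberg, called 18.2% of genes changed. Among the 10, stg, CycE and dap rose, 3 of 10, and none fell. The level of stg averaged 770 ± 375 CPM in wts discs and 231 ± 17.9 CPM in control discs (mean ± SD, n = 3, as for all groups), a log2 fold change of 1.74 ± 0.41 (± standard error, adjusted p = 0.00966). This call held without any 1 of the 6 libraries, with log2 fold changes from 1.39 to 2.07 and adjusted p from 0.00372 to 0.0435. In cic wts discs stg averaged 418 ± 90.7 CPM, above every control library, but the log2 fold change of 0.86 ± 0.41 did not pass (adjusted p = 0.144). Where only the 6 libraries compared entered the fit, it did (adjusted p = 0.0199).

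Against cic discs, which averaged 192 ± 22.6 CPM, the log2 fold change of stg in cic wts discs was 1.12 ± 0.41, just short of the threshold (adjusted p = 0.051). Of 6 fits that each left out 1 library, it passed in 1, without cic wts day 5 replicate 1 (log2 fold change 1.29, adjusted p = 0.0446). It also passed in 4 of 8 other alternatives, with adjusted p from 0.00548 to 0.384 over the 8. These 4 were no filter on low counts, DESeq2, only the compared libraries, and leaving out control replicate 3 with cic wts day 5 replicate 1. Loss of cic in discs with intact wts left stg between an estimated log2 change of -1.12 and 0.60 (95% interval; estimate -0.26 ± 0.40, adjusted p = 0.877), and the libraries overlapped. These libraries do not tell apart the sizes of effect within that interval.

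In the wts background, discs that also lacked cic had less stg on average at both ages. At day 9 the mean was 419 ± 14.9 CPM in cic wts discs and 1112 ± 833 CPM in wts discs, and the 3 libraries of each group did not overlap. The log2 fold change was -1.41 ± 0.41 and missed the threshold (adjusted p = 0.0512). It rested on wts day 9 replicate 1: without that library it was -0.59 (adjusted p = 0.402), and without replicate 2 or replicate 3 of wts it was -1.72 and -1.65 and passed (adjusted p = 0.0213 and 0.0381). At day 5 the log2 fold change was -0.88 ± 0.41 (95% interval -1.74 to -0.02, adjusted p = 0.316), with overlap, and it was -0.54 without wts day 5 replicate 2. The test of whether the effect of cic on stg depends on wts gave a difference of -0.62 ± 0.57 on the log2 scale (95% interval -1.83 to 0.60, adjusted p = 0.682). From day 5 to day 9 the log2 change of stg was 0.01 ± 0.40 in cic wts discs (95% interval -0.85 to 0.86) and 0.53 ± 0.40 in wts discs (adjusted p = 0.995 and 0.441). Without wts day 9 replicate 1 the estimate in wts discs was -0.28.

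Few genes spread as widely as stg among wts libraries. The SD of log2 CPM was 1.00 in wts discs at day 9, exceeded by 39 of 6817 genes with a mean of at least 5 CPM (0.572%), and 0.84 in wts discs at day 5, exceeded by 52 (0.763%). With cic also lost, it was 0.05 at day 9, where 77.2% of genes had a larger SD, and 0.34 at day 5, where 7.36% did. In cic discs it was 0.16 and in control discs 0.11. At day 9, wts replicate 1 had 3.27 times the mean stg of replicates 2 and 3, rank 23 of 6815 genes, and at day 5 replicates 2 and 3 of wts had on average 2.70 times the stg of replicate 1, rank 23 of 6812. Those libraries stood apart in other transcripts as well. In wts day 9 replicate 1 the nuclear receptor gene Hr46 had 7.71 times the mean of replicates 2 and 3. The muscle myosin gene Mhc had 5.76 times and the hemocyte gene PPO1 5.31 times. Sums over 6 differentiated muscle genes, Mhc among them, were 935, 908 and 940 CPM in replicates 1, 2 and 3. These sums do not show single genes: up, another of the 6, had 3.83 times in replicate 1. Zasp66, Mf, Prm and wupA, which are not among the 6, had 10.9, 3.92, 3.64 and 3.20 times. Sums over 8 hemocyte genes, PPO1 among them, were 166, 91.9 and 80.3 CPM. The salivary glue gene Sgs3 had 18.4 times, but near the floor, at 0.478, 0.052 and 0 CPM. All 7 salivary gland genes summed to 1.81 CPM in replicate 1. In wts day 5 replicates 2 and 3 the larval cuticle gene Lcp1 averaged 222 times its level in replicate 1. CG32249, Obp56d, CG5639, CG11370 and CG13067 were, like stg, among the 25 highest ratios in both sets. The part of these differences between libraries in the spread of stg was not tested.

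Some genes beside stg on the chromosome ranked the wts libraries in the same order as stg, and others did not. CG45544, 685 bases away, stayed under 1 CPM in every library, too near the floor to be ranked. SP1029, 1375 bases away, stood at 56.8, 29.6 and 48.2 CPM in wts replicates 1, 2 and 3 at day 9 and at 28.7, 36.1 and 29.2 CPM at day 5. The noncoding gene lncRNA:CR31044, 32159 bases away, was highest in the same day 9 library as stg, at 12.7, 2.55 and 5.01 CPM, and stood at 2.81, 3.68 and 3.58 CPM at day 5.

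The summed level of 4 genes listed as tracheal markers was also higher in wts-mutant discs, though btl among them was lower. The sum over 4 tracheal genes, none of them at 0, ran from 1950 to 2223 CPM in cic wts and from 1744 to 2112 CPM in wts discs at day 9, from 1430 to 1805 CPM in cic wts, from 1492 to 1613 CPM in wts, from 797 to 1122 CPM in cic and from 924 to 1318 CPM in control discs at day 5. Most of that sum came from verm and serp, chitin deacetylases, while btl, the tracheal FGF receptor gene, ran from 4.3 to 10.5 CPM in the wts-mutant libraries and from 10.9 to 15.4 CPM in the others. The part of the tracheal genes in the levels of stg, CycE and dap was not tested. With the summed level of roX1 and roX2 as a covariate, stg in wts against control discs still passed (log2 fold change 1.60, adjusted p = 0.0322). The stg gene (3R 29251826 to 29255800, release 6 coordinates, FBgn0003525) lies 1.53 megabases from wts and 8.95 megabases from cic, on the arm that was exchanged in the clones, so alleles carried with the mutated chromosome and the mutation itself cannot be told apart.

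Among the genes of the G1 to S transition, CycE (2L 15727581 to 15748150, FBgn0010382) and dap, the gene of its inhibitor (2R 9712321 to 9716256, FBgn0010316), were both higher at day 5 when wts was lost. At day 9 CycE stood at 143.8, 152.4 and 132.2 CPM in cic wts discs and at 154.1, 134.9 and 142.4 CPM in wts discs. At day 5 it stood at 106.9, 133.4 and 132.4 CPM in cic wts, at 125.0, 124.1 and 134.3 CPM in wts, at 83.4, 93.0 and 110.3 CPM in cic and at 92.1, 94.6 and 96.8 CPM in control discs. The wts and cic wts libraries all exceeded the control libraries, and cic replicate 3 reached into the cic wts range. CycE overlaps 2 noncoding genes, lncRNA:CR44974 and asRNA:CR44866, which summed to 519 and 2 counts over all libraries beside 43828 for CycE. CycE rose in wts discs by a log2 fold change of 0.44 ± 0.10 (adjusted p = 0.00726), a call kept without any 1 of the 6 libraries (adjusted p from 0.0163 to 0.0395). In cic wts discs it rose by 0.39 ± 0.10 against control (adjusted p = 0.00999, where 22.5% of all genes were called and 2 of the 10 members were) and by 0.38 ± 0.10 against cic discs (adjusted p = 0.00889). The call against cic was lost with the roX level as a covariate (0.17, adjusted p = 0.335) and with only those 6 libraries in the fit (adjusted p = 0.0951). The call against control was lost narrowly with the roX covariate (0.28, adjusted p = 0.0559).

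The inhibitor gene dap stood at 172.8, 209.4 and 190.3 CPM in cic wts discs and at 112.7, 163.1 and 150.1 CPM in wts discs at day 9. At day 5 it stood at 158.9, 228.9 and 191.0 CPM in cic wts, at 173.5, 159.8 and 188.7 CPM in wts, at 110.7, 121.7 and 128.7 CPM in cic and at 121.9, 129.6 and 140.6 CPM in control discs. The groups with and without wts did not overlap at day 5. In cic wts discs dap rose by 0.68 ± 0.14 on the log2 scale against cic (adjusted p = 0.0015) and by 0.56 ± 0.14 against control (adjusted p = 0.00833). The roX covariate ended the call against cic (0.51, adjusted p = 0.0673). The rise in wts discs against control, 0.41 ± 0.14, stood just inside the threshold (adjusted p = 0.0473) and was lost without any 1 of the 6 libraries (adjusted p from 0.0524 to 0.179). At day 9 dap was higher in all 3 cic wts libraries than in the wts libraries, by 0.43 ± 0.14, which did not pass (adjusted p = 0.0761); without wts day 9 replicate 2 it did (0.54, adjusted p = 0.0471).

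To read the inhibitor beside its target, the counts of CycE were divided by those of dap in each library. The ratio, which compares counts and not protein, was 0.752 ± 0.0720 in cic wts and 1.05 ± 0.283 in wts discs at day 9, and 0.650 ± 0.0588 in cic wts, 0.736 ± 0.0354 in wts, 0.791 ± 0.0570 in cic and 0.725 ± 0.0338 in control discs at day 5. At day 5 the cic wts libraries, from 0.583 to 0.693, lay below the wts and the cic libraries and overlapped the control ones, while wts and control libraries overlapped. At day 9 the cic wts and wts libraries overlapped. The highest ratio, 1.37, was in wts day 9 replicate 1, the library with the highest stg. No test was run on the ratio.

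**Figure D2:**
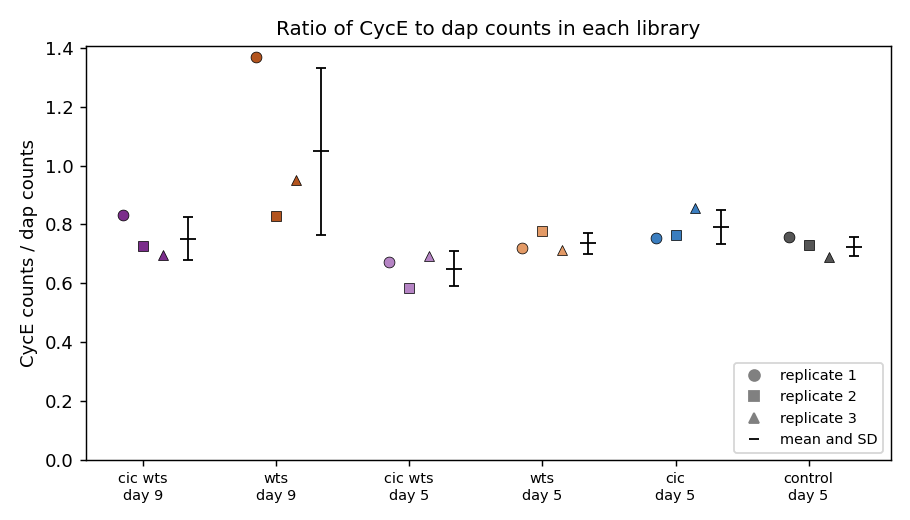
Ratio of CycE counts to dap counts in each library (vertical axis, no unit) for the 6 groups (horizontal axis); points are libraries and bars mark the mean and SD of 3 libraries. The day 5 groups lie between 0.583 and 0.857, and wts day 9 replicate 1 lies apart at 1.37.

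CycD (X 15906822 to 15909676, FBgn0010315), the G1 cyclin gene, passed in none of the 10 comparisons. Its libraries ran from 88.1 to 93.1 CPM in cic wts and from 86.9 to 90.6 CPM in wts discs at day 9, and from 84.8 to 88.0 CPM in cic wts, from 78.2 to 87.1 CPM in wts, from 90.4 to 100.5 CPM in cic and from 79.1 to 101.5 CPM in control discs at day 5. The control libraries span nearly the whole range of the gene. In wts against control discs the log2 fold change was -0.13 ± 0.07 (adjusted p = 0.23), and it passed without control replicate 3, the library highest in salivary gland transcripts (-0.22, adjusted p = 0.0297).

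**Figure D3:**
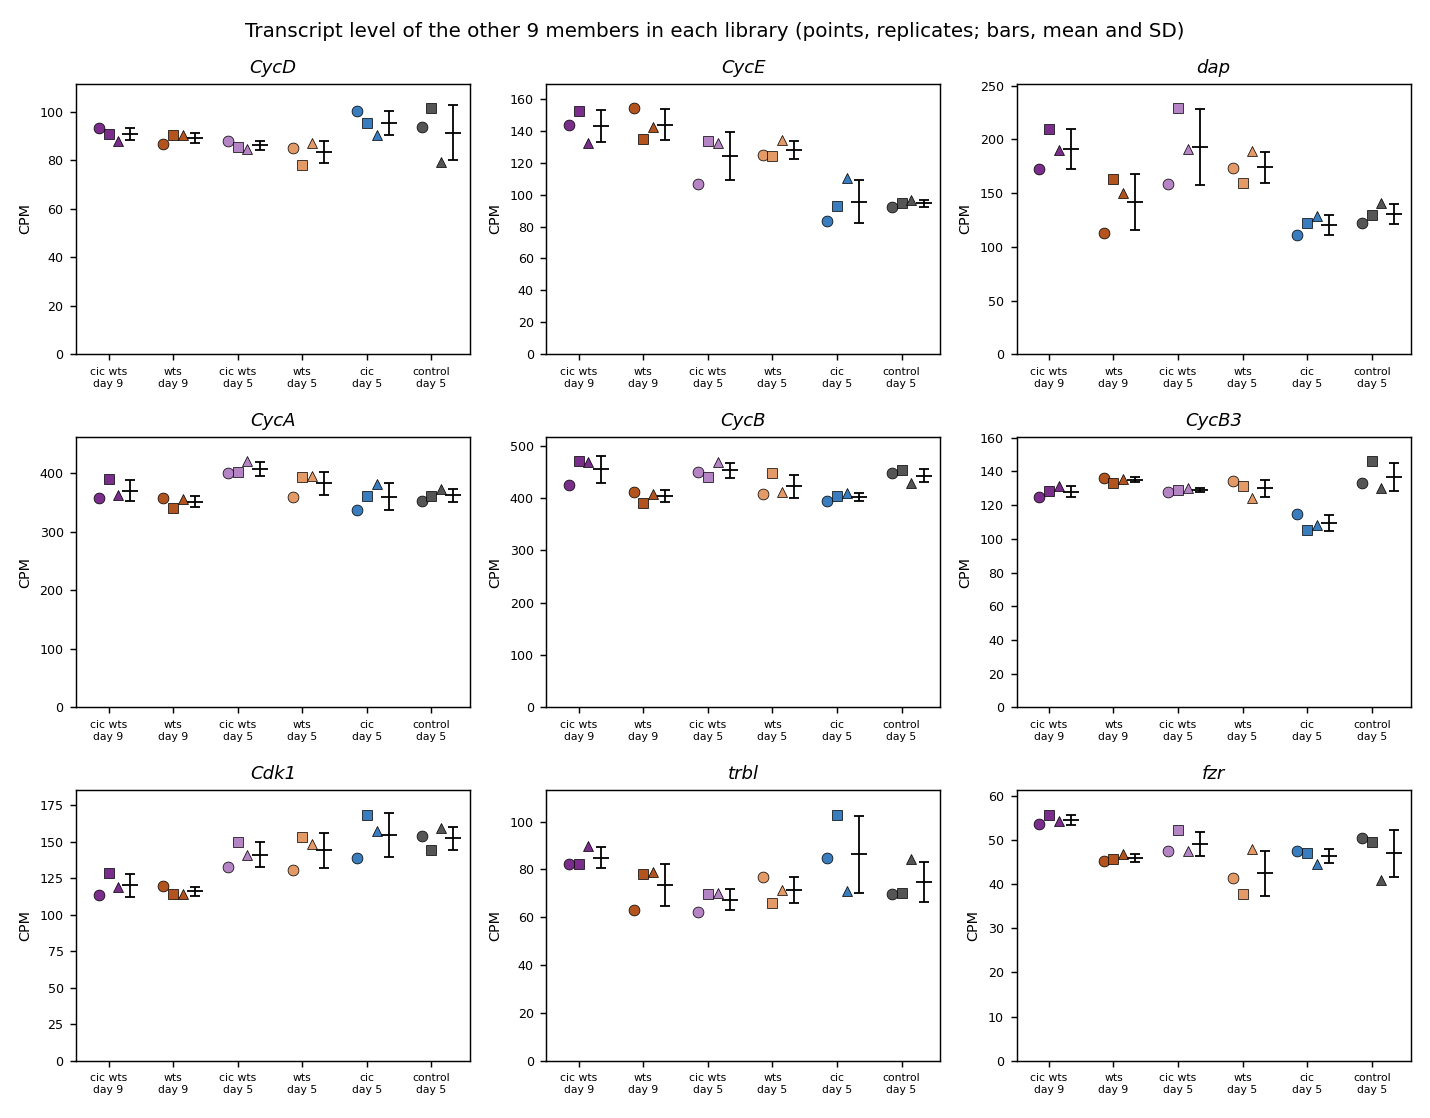
Levels of the other 9 genes in each library, in CPM (vertical axes, each starting at 0), for the 6 groups (horizontal axes); points are libraries and bars mark the mean and SD. At day 5 CycE and dap are higher in cic wts and wts discs than in control discs, Cdk1 is lowest at day 9, and CycB3 is lowest in cic discs.

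Among the mitotic genes CycB3 was the 1 member that changed with loss of cic alone, a comparison in which 1.63% of all genes were called. It stood at 114.6, 105.4 and 108.3 CPM in cic discs and at 133.1, 146.0 and 130.3 CPM in control discs. All 3 cic libraries lay below all control libraries, and below all 12 libraries of the wts and cic wts groups, which ran from 124.4 to 136.3 CPM. The fall was -0.32 ± 0.05 on the log2 scale (adjusted p = 0.00406) and was kept without any 1 of the 6 libraries (adjusted p from 0.00523 to 0.0272), but not where only those 6 entered the fit (-0.31, adjusted p = 0.378). Where wts was lost as well, no fall was seen: CycB3 averaged 129 ± 1.33 CPM in cic wts and 130 ± 5.03 CPM in wts discs at day 5, a log2 fold change of -0.01 ± 0.05 (95% interval -0.12 to 0.10, adjusted p = 0.949). The difference between the effects of cic in the wts background and in the control background was 0.31 ± 0.07 (95% interval 0.15 to 0.46, adjusted p = 0.0435), the sole call among the 10 where 1.94% of all genes were called. It stood just inside the threshold and was lost in 10 of 12 fits that each left out 1 library (adjusted p up to 0.125), the exceptions being those without control replicate 3 or cic replicate 1. CycB3 (3R 24867934 to 24870816, FBgn0015625) lies 4.56 megabases from cic and 5.92 megabases from wts, on the exchanged arm.

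CycB and CycA, whose proteins act with Cdk1, varied little. CycB (2R 22803521 to 22806948, FBgn0000405) stood at 424.8, 469.9 and 469.0 CPM in cic wts and at 412.2, 390.4 and 407.9 CPM in wts discs at day 9, and averaged 453 ± 14.7 CPM in cic wts, 422 ± 21.5 CPM in wts, 402 ± 7.45 CPM in cic and 443 ± 12.5 CPM in control discs at day 5. In cic against control discs its log2 fold change was -0.14 ± 0.06, without overlap (adjusted p = 0.363), and at day 9 it was 0.17 ± 0.06 in cic wts against wts discs, also without overlap (adjusted p = 0.0874). CycA (3L 11826719 to 11833578, FBgn0000404) overlaps CG7264, which had 236 counts over all libraries beside 134744 for CycA. CycA averaged 370 ± 17.3 CPM in cic wts and 351 ± 9.90 CPM in wts discs at day 9, and 407 ± 11.3 CPM in cic wts, 382 ± 19.5 CPM in wts, 360 ± 22.3 CPM in cic and 362 ± 10.7 CPM in control discs at day 5. In cic wts against control discs its log2 fold change of 0.17 ± 0.06 had no overlap and fell short (adjusted p = 0.054). The group means of CycA and of CycB differed by no more than 1.16 times between any 2 groups.

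The comparison with the most calls among the 10 was that of cic wts with cic discs at day 5, the loss of wts where cic is already lost: CycE, dap, CycA, CycB and CycB3 rose and trbl fell, 6 of 10, where 29.2% of all genes were called. Cic discs also had the lowest mean of dap, CycB and CycB3 of all 6 groups, so these folds start from the lowest levels. CycB3 rose by 0.24 ± 0.05 (adjusted p = 0.00283), CycB by 0.17 ± 0.06 (adjusted p = 0.0344) and CycA by 0.18 ± 0.06 (adjusted p = 0.0361). The rises of CycA and CycB and the fall of trbl each passed in 1 of 6 fits that left out a library: CycA only without cic replicate 3 (adjusted p up to 0.144 in the other fits), CycB only without cic wts replicate 2 (up to 0.0992) and trbl only without cic replicate 3 (up to 0.208). The rise of CycB3 passed in all 6 and was lost with only those 6 libraries in the fit (adjusted p = 0.0716). The sum over 6 markers of adult muscle progenitors, cells attached to the disc, ran from 178 to 200 CPM in cic wts and from 246 to 278 CPM in cic discs, and its part in these changes was not tested. Cic and wts discs were each set against the same 3 control libraries, and the cic wts libraries served in 3 of these comparisons, so the comparisons are not independent.

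Cdk1 (2L 10384739 to 10386262, FBgn0004106), the mitotic kinase gene, differed with age in discs with wts-mutant clones. It stood at 113.1, 128.5 and 118.7 CPM in cic wts and at 119.5, 114.1 and 113.9 CPM in wts discs at day 9. At day 5 it stood at 132.5, 149.6 and 140.7 CPM in cic wts, at 130.5, 153.2 and 148.0 CPM in wts, at 138.7, 168.5 and 157.2 CPM in cic and at 153.7, 144.0 and 159.5 CPM in control discs. All 6 libraries of day 9 lay below all 12 of day 5. In wts discs Cdk1 fell at day 9 by a log2 fold change of -0.31 ± 0.08 (adjusted p = 0.031), the sole call of the 10 in a comparison where 6.89% of all genes were called. This call passed without wts day 5 replicate 1 and was lost without any 1 of the other 5 libraries (adjusted p up to 0.127). In cic wts discs the log2 fold change was -0.23 ± 0.08 (adjusted p = 0.0736), and none of the 10 was called where 10.6% of all genes were. Of the 10, 3 had an unadjusted p under 0.05, a threshold at which the share of all genes was not counted. DESeq2 called Cdk1 alone among the 10, and 1382 of 8981 genes. The age effect on Cdk1 was not shown to differ between cic wts and wts discs (0.08 ± 0.11, adjusted p = 0.935). At day 5, Cdk1 was not called in any comparison between genotypes.

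The switches trbl (3L 20396288 to 20401609, FBgn0028978) and fzr (X 4667290 to 4679537, FBgn0262699) act through protein destruction. At day 9 trbl averaged 84.9 ± 4.41 CPM in cic wts and 73.3 ± 8.79 CPM in wts discs. At day 5 it averaged 67.4 ± 4.34 CPM in cic wts, 71.4 ± 5.51 CPM in wts, 86.3 ± 16.0 CPM in cic and 74.7 ± 8.26 CPM in control discs. Its highest library, at 102.9 CPM, was cic replicate 2, and without it the fall in cic wts against cic discs was -0.21 in place of -0.36 ± 0.12. In cic wts discs trbl was higher at day 9 than at day 5 in every library, by 0.33 ± 0.12, which did not pass (adjusted p = 0.0917). The gene fzr averaged 54.6 ± 1.08 CPM in cic wts and 46.0 ± 0.826 CPM in wts discs at day 9, without overlap, a log2 fold change of 0.25 ± 0.09 (adjusted p = 0.116). At day 5 it averaged 49.1 ± 2.68 CPM in cic wts, 42.5 ± 5.20 CPM in wts, 46.4 ± 1.52 CPM in cic and 47.0 ± 5.33 CPM in control discs, and it passed in no comparison.

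Loss of cic in the wts background gave no call among the 10 at either age. At day 5, 2.91% of all genes were called and 2 members had an unadjusted p under 0.05. DESeq2 called 0 of the 10 members there, and 486 of 8806 genes. At day 9, 6.9% of all genes were called and 4 members had an unadjusted p under 0.05. DESeq2 called 3 members: stg lower, and dap and CycB higher in cic wts discs. Over all genes DESeq2 called 911 of 8981 there. The share of all genes at that unadjusted p was not counted at either age. The interaction of cic with age gave 0 calls among the 10 and 0% over all genes, with no member at an unadjusted p under 0.05 and none called by DESeq2, which called 33 genes in all. In all, 14 of 100 tests of a member in a comparison passed, shared by 8 members, and CycD and fzr passed in none. The share of all genes called ran from 0% to 29.2% between these comparisons. Whether the members passed more often than other genes was not tested.

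**Figure D4:**
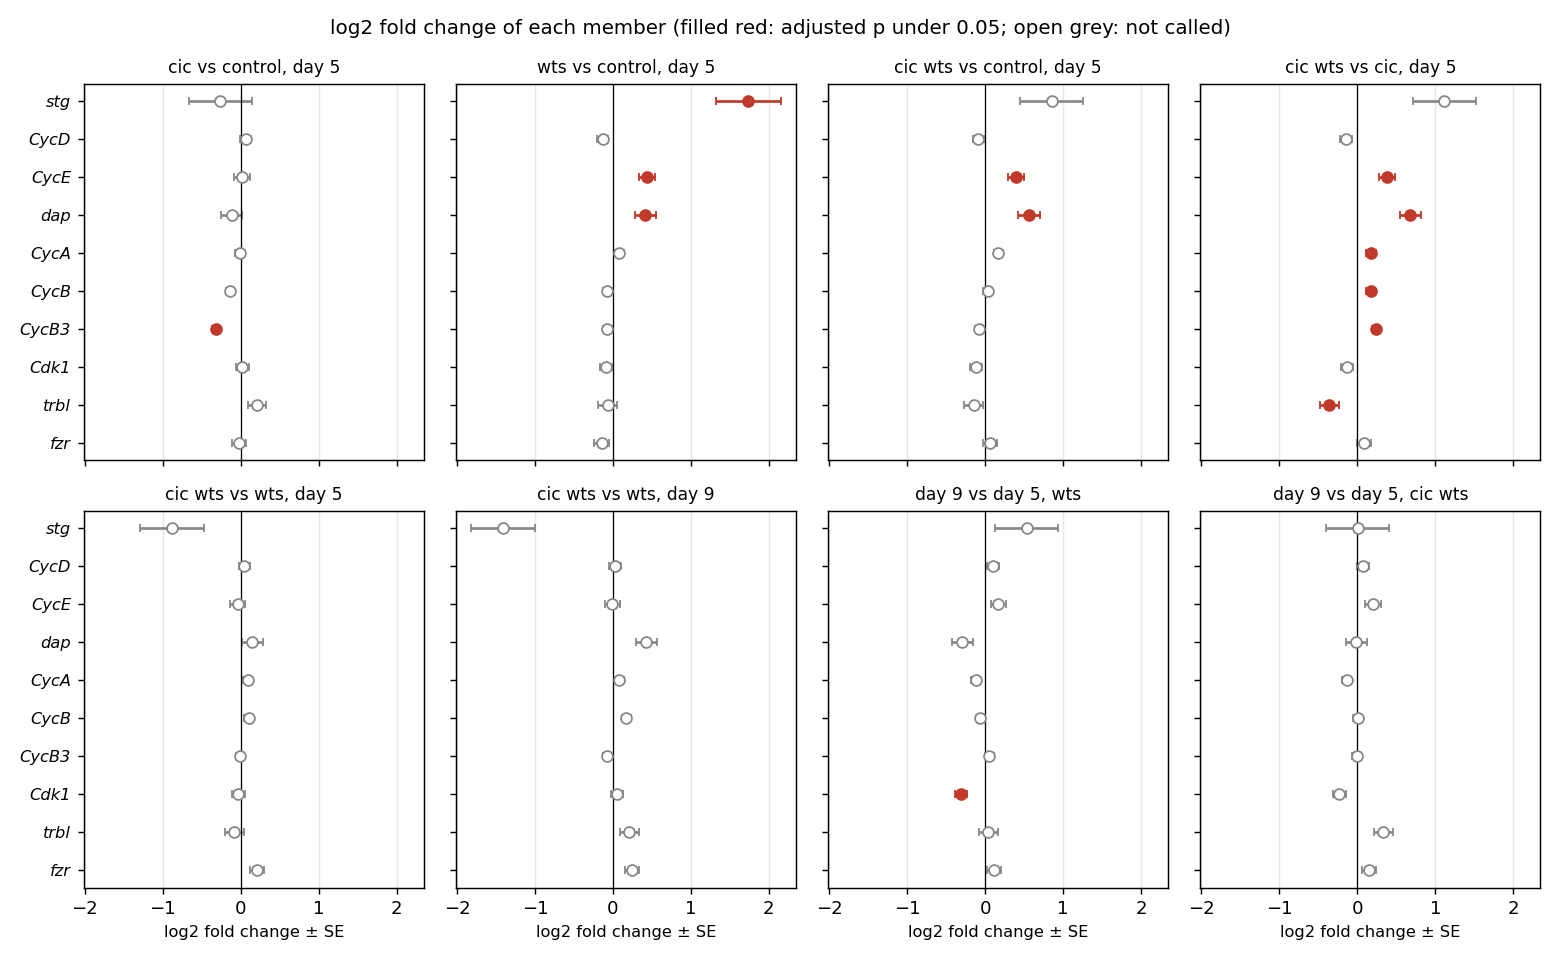
Log2 fold change (horizontal axis) with its standard error for each of the 10 genes (rows) in 8 comparisons (panels); red points passed at an adjusted p under 0.05. In wts against control discs stg, CycE and dap lie right of 0 in red, in cic against control discs CycB3 alone is red, and in cic wts against wts discs stg has the lowest estimate at both ages with no red point.

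Other genes of the same machinery were counted by role. Lists of 16 S phase genes and 21 genes of mitosis had 0 and 1 members called in cic against control discs, the 1 lower, where 1.63% of all genes were called, with median log2 fold changes of -0.14 and -0.13. In wts against control discs 1 and 3 were called, all higher, with medians of 0.07 and 0.10, and both counts are a smaller share than the 18.2% called over all genes. In cic wts against cic discs, 11 of 16 S phase genes and 13 of 21 mitosis genes rose and none fell, where 29.2% of all genes were called, with medians of 0.33 and 0.28 beside 0.01 over all genes tested. The S phase genes included DNApol-epsilon255, the catalytic subunit of DNA polymerase epsilon, with a log2 fold change of 0.96 ± 0.08 (134 CPM in cic wts and 69.0 CPM in cic discs, adjusted p = 4.54e-07), and DNApol-alpha180, of the polymerase that primes synthesis, with 0.52 ± 0.07 (adjusted p = 5.07e-05). The mitosis genes included asp, which organises spindle poles, with 0.58 ± 0.07 (adjusted p = 1.09e-05), and pav, a kinesin of cytokinesis, with 0.48 ± 0.06 (adjusted p = 2.22e-05). Both counts were 9 where only the 6 libraries compared entered the fit. The folds of CycA, CycB and CycB3 in that comparison were smaller than both medians.

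Against control discs, 7 S phase genes and 11 mitosis genes rose in cic wts discs and none fell, where 22.5% of all genes were called, with medians of 0.20 and 0.23. Without control replicate 3 these were 4 and 7, and with only the libraries compared in the fit both were 4. In cic wts against wts discs at day 9, 10 of 16 S phase genes rose, with a median of 0.31, among them DNApol-epsilon255 at 0.47 ± 0.08 (adjusted p = 0.00125) and Orc1, of the origin recognition complex, at 0.46 ± 0.08 (adjusted p = 0.00165), and 1 of 21 mitosis genes did, with a median of 0.16. Over all genes 6.9% were called there, a larger share than that of the mitosis genes. Leaving out wts replicate 1 gave 4 S phase genes in place of 10, leaving out wts replicate 2 gave 6, and leaving out cic wts replicate 2 or replicate 3 gave 5; the 1 mitosis gene was lost without any wts library and without cic wts replicate 2 or 3. CycE, which starts S phase, had a log2 fold change of -0.01 ± 0.10 in that same comparison (95% interval -0.22 to 0.20).

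Among 12 genes of G1 to S transcription and of the SCF ubiquitin ligase, 3 rose and 5 fell in cic wts against cic discs, where 29.2% of all genes were called. The Myc gene dm, which promotes growth, had a log2 fold change of 0.52 ± 0.09 (adjusted p = 0.000444) and slmb, an F-box protein gene, one of -0.36 ± 0.05 (adjusted p = 0.000128). In wts against control discs dm rose by 0.66 ± 0.09 (adjusted p = 0.000184). Of 16 tested Cdk partners and regulators, 3 rose in cic wts against cic discs, a smaller share than the 29.2% of all genes; Cks30A was among them at 0.49 ± 0.09 (adjusted p = 0.000583). Of 13 tested members of the anaphase-promoting complex list, which works with Fzr, 0 were called in that comparison, and neither was fzr (0.08 ± 0.09, adjusted p = 0.54).

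**Figure D5:**
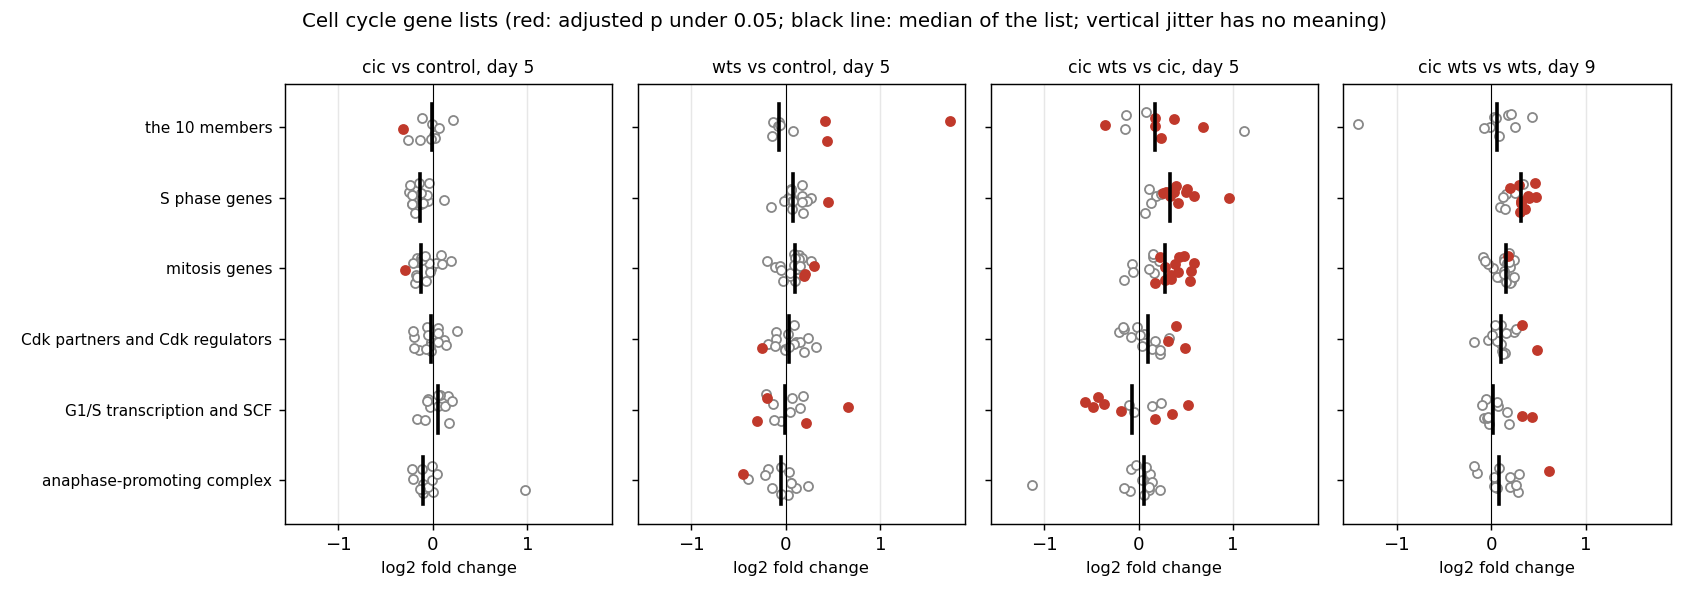
Log2 fold changes (horizontal axis) of the 10 genes and of 5 lists of other cell cycle genes (rows) in 4 comparisons (panels); each point is a gene, red where it passed, and black lines mark list medians. Most S phase and mitosis genes lie right of 0 in cic wts against cic discs, with medians of 0.33 and 0.28, and S phase genes do so in cic wts against wts discs at day 9, with a median of 0.31.

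The genes with the profile most like each member over the 6 group means were found among 6807 genes with a mean of at least 5 CPM, by the root mean square difference of log2 CPM after each profile was centred. For stg the nearest were Cpr51A and CG13685, both at 0.20, against 0.81 for the profile of stg around its own mean. For CycE they were CG11961 at 0.013 and rtet at 0.031, for dap rempA at 0.045 and CG5167 at 0.059, and for CycB3 CenB1A at 0.034 and l(3)mbt at 0.038. The profile of stg thus had no neighbour as close as those of CycE, dap and CycB3, in a gene whose range was also wider.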

How the data were processed

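Wing disc RNA-seq libraries, 18 of the 31 samples in the series, were analysed; the 13 ChIP samples were not analysed here. The authors deposited raw counts of reads per gene. Bowtie2, TopHat2, HTSeq, DESeq2 and build dm6 are named per the submitters' processing notes. Versions and whether counting used strand: not given in the sources used here. Reads of overlapping genes therefore cannot be separated. Per the labels, each library was a pool of discs; whether pools were raised separately is not stated, so p-values measure the spread between pools. Replicates differed beyond sampling noise (chi-square per degree of freedom 10.4 to 58.9).

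After filterByExpr, 9004 of 17373 genes were fitted by edgeR 4.0.16 (R 4.3.3) with TMM scaling and a quasi-likelihood test, all 18 libraries together and 1 coefficient per group; calls are at a Benjamini-Hochberg adjusted p under 0.05. The common biological coefficient of variation was 0.185. Standard errors come from the F statistic. CPM use TMM-scaled totals. The procedure was run on simulated counts, drawn independently for each gene and library. No simulated library stood apart in transcripts of other tissues, so that run cannot speak to such libraries. Symbols, synonyms and coordinates are those of RefSeq's release 6 annotation. Levels were not compared between genes, since exon lengths were not used.

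The members and lists were chosen with earlier results of these data known. Genes named are the 10 members, cic and wts, at most the 2 called genes of smallest adjusted p from each list and comparison, and the 2 nearest profiles of each member called; from the lists, the text names only genes kept without any 1 library, a choice made after their values were seen. The neighbours of stg and the genes high in the same libraries as stg were named after their values were seen. So were the tracheal genes verm, serp and btl and the wing disc genes vg, pnr and rn. Alternatives were scaling by RLE or by total counts, no filter, a replicate block, the roX level as a covariate, DESeq2 1.42.0, only the compared libraries, and leaving out each library, or control replicate 3 with cic wts day 5 replicate 1.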

Additional observations from a re-analysis of the deposited data

Results flagged for a closer look

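CycB3 was picked out because the effect of losing cic differed between the wts background and the control background in the test of that difference. The difference was 0.31 on the log2 scale (adjusted p = 0.0435, edgeR). CycB3 averaged 129 CPM in cic wts and 130 CPM in wts discs, against 109 CPM in cic and 136 CPM in control discs, with n = 3 each. All 3 cic libraries were below all control libraries, and cic wts and wts libraries overlapped.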

How the results depend on the processing

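Of 14 calls among the members, 3 were kept under every alternative: stg and CycE in wts against control and dap in cic wts against control discs. Over 1500 member results under alternatives, 78 changed sign, 0 of them while called, and 23 of 100 tests changed their call at least once. The number of members called in cic wts against wts discs at day 9 was 0. It was 1 with RLE size factors, with no filter and with only the compared libraries, and 3 with DESeq2. Over all genes, 621 were called there. The alternatives gave 612 with RLE, 516 with no filter, 863 with only the compared libraries and 911 with DESeq2. For the interaction of cic with wts the number of members called was 1. It was 0 with no filter, with the roX covariate and with only the compared libraries, and 2 with DESeq2. Without control replicate 3 and cic wts day 5 replicate 1 it was 0 as well. That fit kept the libraries high in fat body transcripts. In the same order, these 5 fits called 141, 188, 78, 395 and 154 genes in all, in place of 175. With the roX covariate, 1 member was called in place of 2 in cic wts against control, 1 in place of 6 in cic wts against cic and 1 in place of 0 between ages in cic wts discs, which was also 1 with DESeq2 and with only the compared libraries. With only those libraries, 0 was called in place of 1 in cic against control and 2 in place of 6 in cic wts against cic discs. Calls over all genes moved too. The roX covariate gave 1720 in place of 2022 in cic wts against control and 1863 in place of 2629 in cic wts against cic. Between ages in cic wts discs it gave 1234 in place of 955. Only the compared libraries gave 19 in place of 147 in cic against control and 1481 in place of 2629 in cic wts against cic. Leaving out each library gave 3 to 5 members called in cic wts against cic, 0 to 1 in the interaction, 0 to 1 between ages in wts discs and 0 to 2 in cic wts against wts discs at day 9. Same-numbered libraries were alike in part. Their deviations correlated from -0.139 to 0.442, over 0.1 in 15 of 45 pairs, and 12 of 18 libraries correlated best with their own number. The fit as reported has no term for the replicate number. The fit with the replicate block called 1 member in cic wts against wts discs at day 9 and 0 in the interaction. It called 603 and 165 genes in all in these comparisons. Over all genes, counts of calls in the alternatives ranged from 19 to 248 in cic against control (147 as reported), from 813 to 1945 in wts against control (1635), from 1044 to 2294 in cic wts against control (2022), from 105 to 486 (262) and 307 to 911 (621) in cic wts against wts at days 5 and 9, from 1481 to 2837 in cic wts against cic (2629), from 118 to 1082 (620) and 237 to 1382 (955) between ages in wts and cic wts, and from 78 to 395 in the interaction with wts (175). Of 50 list counts, 33 moved by over 1.5 times in at least 1 alternative, and of 51 called list genes 21 kept their call in all. With 3 pools a group, stg, the most variable member, carries standard errors of about 0.40 on the log2 scale. Its intervals are therefore wide, and a missing call does not show that stg was unchanged.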
